A study of Rattus norvegicus with 6 samples.

Results

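The genes described here are 42 genes of the lysosome and of autophagy, measured in cultured rat cortical neurons with and without the complement protein C1q. They were chosen by name for their function and cover lysosomal enzymes, lysosomal membrane proteins, the proton pump, nutrient-sensing regulators and the autophagy machinery. Each was represented by the probe set, a group of array probes for 1 transcript, that named exactly that gene and had the highest mean over all arrays. All 42 were found among the 14506 genes that the platform annotation names singly. The cells were primary neurons from the cortex of Sprague-Dawley rat embryos at embryonic day 18, kept for 3 days in NB-N2 medium. One group of 3 arrays held RNA of neurons that received nothing, and the other group of 3 held RNA of neurons given C1q at 10 nM for 3 h. The labels give no genetic change, sex or embryo number, and number the arrays 1 to 3 in each group without saying whether they stand for separate cultures.

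Lysosomes are acidic organelles in which hydrolases break down proteins, lipids and sugars. A proton pump, the V-ATPase, sets their pH, and in neurons defects of single lysosomal enzymes cause storage diseases with neurodegeneration. Autophagy delivers cytoplasm to lysosomes: a kinase complex around Ulk1 and a lipid kinase complex around Becn1 start a membrane, a conjugation machinery attaches Atg8 family proteins to it, and receptors such as Sqstm1 bind the cargo. The transcription factor Tfeb, held in the cytoplasm by the kinase mTOR, can induce many genes of both systems at once. The comparison asks whether 3 h of C1q was accompanied by altered transcript levels of these genes.

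No lysosome or autophagy gene passed the test between C1q-treated and untreated neurons. Intensities of all 42 genes lay above the filter on dim probe sets, an intensity of 94.4, in each of the 252 single measurements, which ran from 180.2 to 5998. The 42 fold changes, all on the scale of log2(intensity + 16), lay between 0.926 for Gabarap, an Atg8 family gene, and 1.05 for Tpp1, a lysosomal peptidase gene. Every one of the 42 intervals of 95% lay within 1.3-fold in either direction, as did 96.5% of the intervals of the 9652 tested genes. Tfeb had the lowest lower bound, 0.827 to 1.09 being its interval, and Tpp1 the highest upper bound, with 0.911 to 1.21. Each interval covers its own gene only and is not adjusted for the number of genes.

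**Figure D1:**
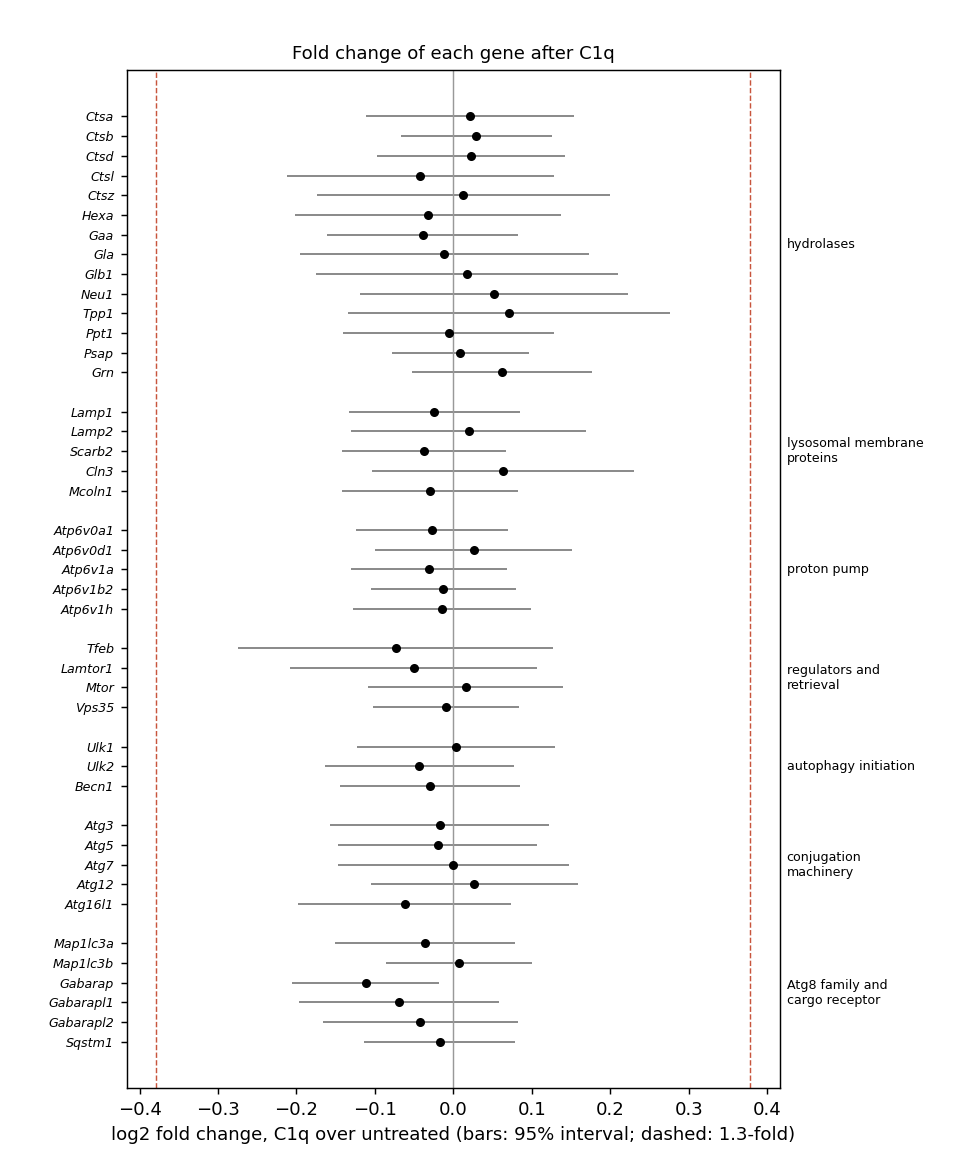
Log2 fold change of each of the 42 genes, C1q over untreated (3 arrays each), grouped by role, with bars for the 95% interval of the limma fit and dashed lines at 1.3-fold. All intervals lie inside the dashed lines, and the interval of Gabarap alone does not cross 0.

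In the limma fit over 17529 probe sets, 0 (0%) were called at an adjusted p under 0.05, and 0 of the 42 genes were. At an unadjusted p under 0.05 there was 1 of 42, Gabarap, against 437 of all 17529 probe sets and 66 of 9652 tested genes. The smallest adjusted p among the 42 was 0.9999. Some alternative settings called probe sets elsewhere on the array: 2.55% with array weights, 0.0513% with the replicate number as a block, 0.217% without untreated array 2 and 0.00342% without the filter. In each of these 4 settings 0 of the 42 genes were called. Of the 42 means, 17 were higher and 25 lower after C1q, which is 59.5% lower, beside 63.0% of all tested genes. The median log2 fold change was -0.014 over the 42 genes and -0.016 over all tested genes. This balance depended on the scaling, for the 42 genes as for all tested genes. With quantile normalization 23 were higher and 19 lower, beside 46.9% of all tested genes lower, and with median centring 26 and 16, beside 41.0% lower. Without untreated array 2 it was 8 and 34, beside 72.1% lower, and without C1q array 2 it was 11 and 31, beside 69.4% lower. An array of cultured cells cannot tell fewer cells of a type from less RNA per cell.

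Untreated arrays 1 and 2 differed from each other by more than the group medians did. Within the untreated group, 29 of the 42 genes (69.0%) were highest on array 1 and 32 (76.2%) were lowest on array 2. Among all tested genes these shares were 61.7% and 58.0%, so the same arrays were highest and lowest for most genes. The median of the 42 genes stood at 0.060 above their own means on untreated array 1 and 0.048 below on untreated array 2, in log2 units. C1q arrays 1, 2 and 3 stood at 0.003, 0.000 and -0.027. All arrays correlated with each other, across probe sets, at 0.991 to 0.996. Their median intensities over all probe sets ran from 147 on C1q array 2 to 155 on untreated array 2, so the values were used as deposited. Untreated array 2 thus had the highest median over all probe sets, though it was the lowest of its group for most tested genes.

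**Figure D2:**
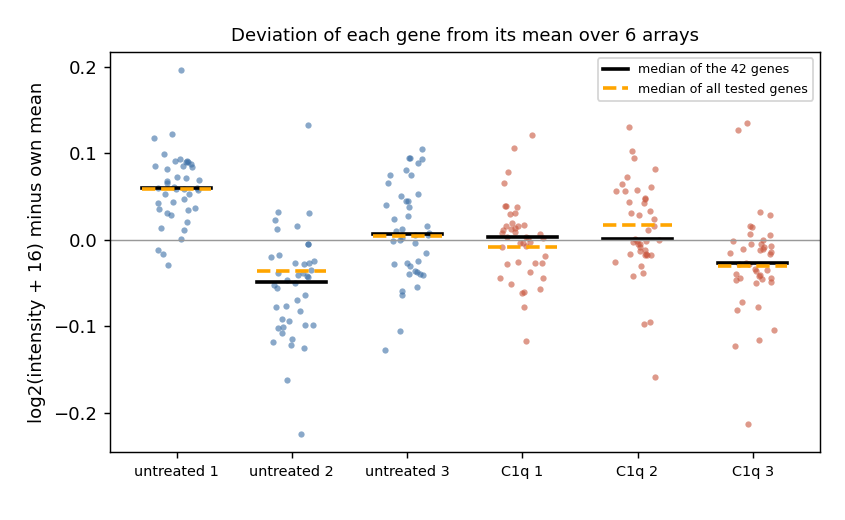
Each point is 1 of the 42 genes on 1 array, as its log2(intensity + 16) minus its mean over all 6 arrays, with the median of the 42 genes as a black bar and that of all 9652 tested genes as a dashed bar. By these medians untreated array 1 lies above and untreated array 2 below the other arrays, for the 42 genes and for all tested genes.

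The coefficient of variation over the untreated arrays ran from 2.09% for Atg5 to 12.6% for Tpp1, with a median of 4.64%, beside 5.80% for all tested genes. Over the C1q arrays the median was 2.65%, beside 4.01% for all tested genes. Thus 32 of the 42 genes varied less among C1q arrays than among untreated arrays, and so did 71.0% of all tested genes. Becn1 had the lowest coefficient of variation in the C1q group, 0.223%, and Gla the highest, 12.5%.

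**Figure D3:**
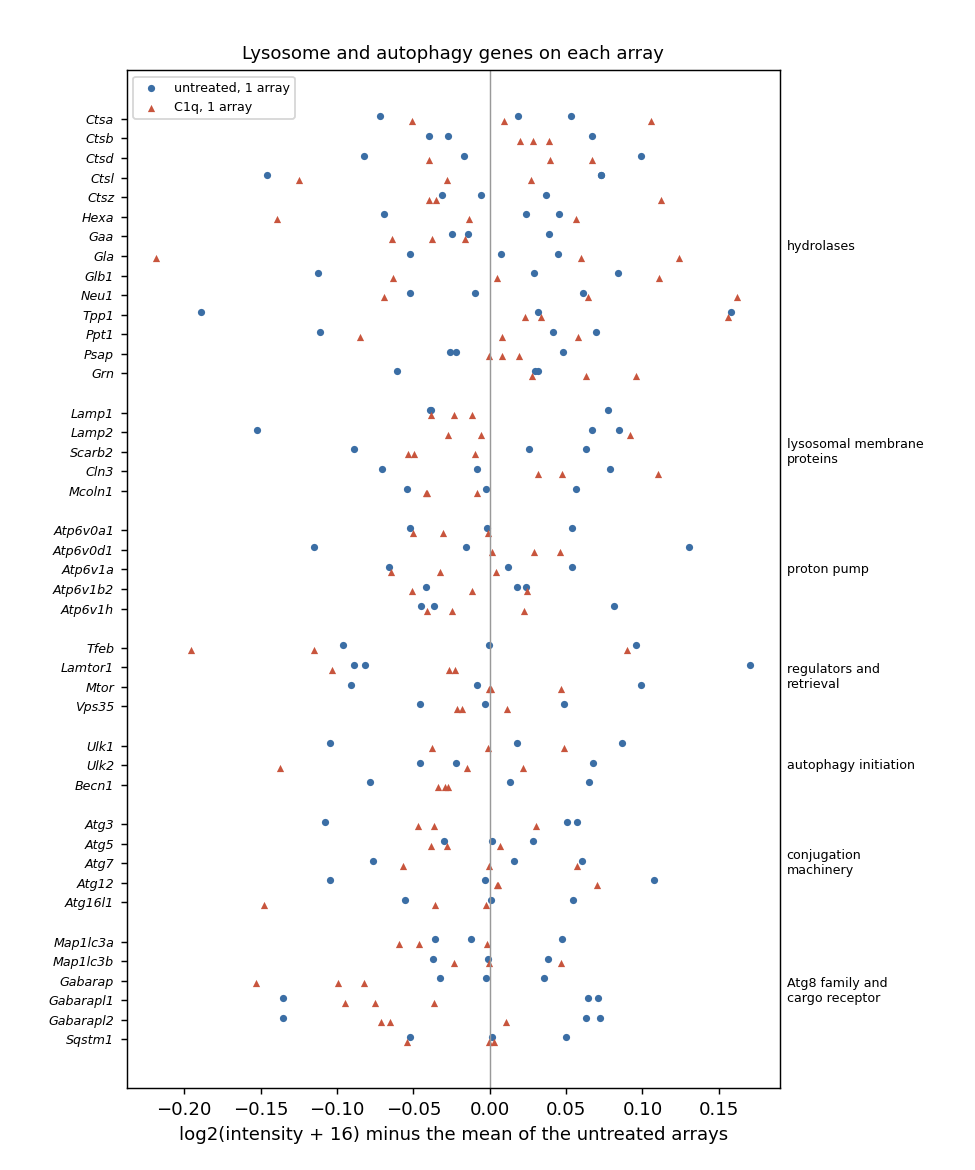
Each gene on every array, as log2(intensity + 16) minus the mean of its 3 untreated arrays, with circles for untreated and triangles for C1q arrays, grouped by role. The ranges of circles and triangles overlap for 41 of the 42 genes, and for Gabarap all triangles lie below all circles.

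Complete separation of both groups was seen for 1 of the 42 genes, Gabarap, which was lower on every C1q array, and for none in the other direction. Among all tested genes the groups did not overlap for 4.96%, 3.73% with C1q lower and 1.23% with C1q higher. The count of 1 in 42 does not exceed that background.

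Promoter sequences were examined for the E-box motif, because the sites that Tfeb is known to bind, called CLEAR elements, contain one. The window ran from 250 bases before to 50 bases after the RefSeq gene start, in build GRCr8. A promoter was found for 34 of the 42 genes. The other 8, Ctsb, Hexa, Ppt1, Psap, Atp6v1b2, Atp6v1h, Becn1 and Map1lc3a, had no entry. The 6-base motif CACGTG, which reads alike on both strands, was present in 10 of 34 promoters (29.4%), beside 9.59% of 8032 promoters of tested genes and 6.65% of all 27457. Its 8-base extension TCACGTGA, also the same on both strands and always overlapping the shorter motif, was present in 6 of 34 (17.6%), beside 1.69% and 0.867%. A match describes the letters in the window and is not a site of binding.

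The upstream stretches of the 6 genes with the 8-base extension are shown because their promoters hold the longer match, with CACGTG in capitals. The stretch ends at or before the gene start, so that the 8-base match of Mcoln1, which lies just past the start, is not in it.
Lamp1 (chr16:83075076-83075266, minus strand): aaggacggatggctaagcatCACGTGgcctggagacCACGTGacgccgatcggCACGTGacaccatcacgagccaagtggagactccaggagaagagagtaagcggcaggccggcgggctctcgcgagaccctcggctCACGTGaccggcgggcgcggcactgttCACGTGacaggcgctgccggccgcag
Cln3 (chr1:190597942-190598015, minus strand): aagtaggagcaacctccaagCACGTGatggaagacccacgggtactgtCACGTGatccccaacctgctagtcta
Mcoln1 (chr12:6358216-6358257, plus strand): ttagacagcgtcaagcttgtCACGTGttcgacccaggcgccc
Ctsd (chr1:206968822-206968998, minus strand): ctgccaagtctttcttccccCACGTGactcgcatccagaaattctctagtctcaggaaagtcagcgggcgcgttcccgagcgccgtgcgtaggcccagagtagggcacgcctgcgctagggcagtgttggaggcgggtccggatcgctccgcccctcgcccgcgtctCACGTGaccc
Atp6v0d1 (chr19:50357275-50357320, minus strand): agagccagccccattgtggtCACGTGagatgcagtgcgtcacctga
Atg3 (chr11:69159281-69159339, minus strand): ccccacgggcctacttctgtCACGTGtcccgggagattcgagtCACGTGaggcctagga

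Lamp1 held 5 copies of the 6-base motif, which begin 183, 167, 150, 65 and 38 bases before the start. Cln3, Mcoln1, Ctsd and Atg3 held 2 copies each, and Atp6v0d1, Gaa, Glb1, Lamtor1 and Atg5 held 1 each. The 10 genes with the motif had fold changes between 0.965 for Lamtor1 and 1.04 for Cln3. Their median log2 fold change was -0.019, with 4 means higher and 6 lower, against -0.010, with 11 higher and 13 lower, for the 24 genes without it. The log2 fold changes of the 24 others ran from -0.11, for Gabarap, to 0.071, a range that holds those of the 10 genes. No gene of either kind passed, but neither did any other tested probe set. An effect of the motif was not tested.

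**Figure D4:**
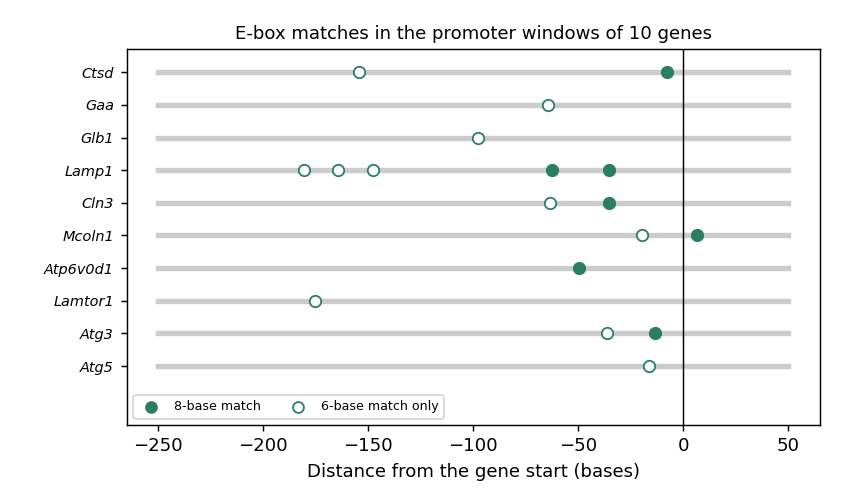
Position of each E-box match against the gene start (0, with negative distances upstream) in the 10 promoters that hold one, with filled circles for the 8-base match and open circles for the 6-base match alone. Gray bars mark the window searched, and Lamp1 has 5 matches, 2 of them filled.

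The hydrolases and their cofactors numbered 14, and none passed, with 9 means higher and 5 lower after C1q at a median log2 fold change of 0.015. With quantile normalization or median centring 11 were higher and 3 lower. Cathepsin D, an aspartic protease encoded by Ctsd, had intensities of 2234, 1968 and 2060.2 on the untreated arrays, in the order of their numbers as in every such list here, and 2028, 2184 and 2143 after treatment. All 3 C1q arrays lay within the range of the untreated arrays. The fold change of Ctsd was 1.02, with an interval of 0.935 to 1.10. Ctsb, the gene of a cysteine protease, read 3044, 2851 and 2826 untreated and 2963, 2985 and 2946 after C1q. Its C1q values sat between the highest untreated array and the other two, for a fold change of 1.02 (0.954 to 1.09).

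Grn encodes progranulin, a secreted protein that is cut into granulins in lysosomes and is linked to frontotemporal dementia. Its intensities were 885, 829 and 884 untreated and 882, 926 and 905 after C1q. Untreated array 2 was the lowest of the 6, and untreated arrays 1 and 3 both stood just above C1q array 1, so the groups overlapped. The fold change was 1.04 (0.964 to 1.13), with an unadjusted p of 0.261. Tpp1, a tripeptidyl peptidase gene mutated in a childhood neuronal storage disease, read 318, 247 and 290.1 untreated and 318, 291 and 288 after C1q. Untreated array 2 was the lowest of the 6, and the other 5 interleaved. Without that array the log2 fold change of Tpp1 was -0.024, against 0.071 with it.

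The remaining 10 genes of this class all overlapped between the groups. Psap, the precursor of saposins that help to degrade sphingolipids, read 5802 ± 169 untreated and 5837 ± 39.7 after C1q, a fold change of 1.01, where ± is the SD over 3 arrays, as it is below. Its interval was 0.947 to 1.07. Glb1, the beta-galactosidase gene, read 217 ± 16.2 untreated and 220.1 ± 14.5 after C1q, with an interval of 0.886 to 1.16. Ctsa, whose product protects beta-galactosidase and sialidase, had a fold change of 1.01, and Neu1, the sialidase gene, 1.04. The 2 further cathepsin genes were Ctsl, at 437 ± 38.7 untreated and 424 ± 23.3 after C1q, and Ctsz, at 186 ± 4.81 untreated and 188 ± 12.4 after C1q. Their fold changes of 0.971 and 1.01 lay within the spread of the arrays. Ppt1, which encodes an enzyme that removes palmitate from proteins, had a fold change of 0.996, and Hexa, a subunit gene of beta-hexosaminidase, 0.978. Gaa, the gene of the enzyme that degrades lysosomal glycogen, read 601 ± 14.8 untreated and 585 ± 9.94 after C1q. Gla, the alpha-galactosidase gene, read 584, 612 and 479 on the C1q arrays, against 560.3 ± 19.4 untreated and 559 ± 70 after C1q as group means, so that 1 C1q array was lower than the other 5 arrays.

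The 5 membrane protein genes did not pass, with 2 means higher and 3 lower, 2 and 3 with quantile normalization and 3 and 2 with median centring. Lamp1, the major glycoprotein of the lysosomal membrane, had intensities of 1407, 1297 and 1297 untreated and 1298, 1322 and 1312 after C1q. Only untreated array 1 stood above the rest, and the fold change was 0.983 (0.912 to 1.06). Lamp2, a splice form of which takes part in chaperone-mediated autophagy, read 962 ± 87.1 untreated and 974 ± 43.9 after C1q, a fold change of 1.01. Mcoln1, a cation channel that releases lysosomal calcium, read 997, 957 and 922 untreated and 930.3, 931 and 953 after C1q. The 3 C1q values lay inside the untreated range, and the fold change was 0.979 (0.906 to 1.06). Scarb2, the receptor that carries glucocerebrosidase to lysosomes, read 3423, 3080.4 and 3337 and 3255, 3165 and 3157 in the same order. Its untreated arrays 1 and 3 were the highest and untreated array 2 the lowest of all 6, with a fold change of 0.974 (0.906 to 1.05). Cln3, the gene mutated in juvenile Batten disease, read 270.0, 242 and 253 untreated and 276, 261 and 264 after C1q. Untreated array 1 lay among the C1q arrays and the other two lay below them, for a fold change of 1.04 (0.930 to 1.17).

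The proton pump was represented by 5 subunit genes, with 1 mean higher and 4 lower as deposited and 3 higher and 2 lower after either rescaling, and none passed. Atp6v1a, the catalytic subunit gene of the cytosolic sector, read 3645, 3354 and 3541 untreated and 3522, 3433 and 3356 after C1q. The values interleaved, with a fold change of 0.979 (0.914 to 1.05) and of 0.965 on its other probe set. Atp6v0a1, a membrane sector subunit gene, read 2703, 2509 and 2600.3 untreated and 2601, 2548 and 2513 after C1q. Its highest value was again on untreated array 1, and the fold change was 0.981 (0.917 to 1.05). Atp6v0d1, which links the sectors, read 3605 ± 311 untreated and 3661 ± 57.5 after C1q, a fold change of 1.02. Atp6v1b2, a subunit beside the catalytic one, read 4026 ± 101 untreated and 3990.3 ± 105 after C1q, and Atp6v1h, a regulatory subunit, 1232 ± 61.8 untreated and 1219 ± 28.4 after C1q. Their fold changes were 0.991 and 0.990.

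The regulators and the retrieval gene Vps35 did not pass, with 1 mean higher and 3 lower of 4, and 2 and 2 after either rescaling. Tfeb had intensities of 279, 299.5 and 260.2 untreated and 257, 242 and 298 after C1q. C1q arrays 1 and 2 were the lowest of the 6, while C1q array 3 was nearly as high as untreated array 2, the highest. Its fold change of 0.950 had an interval of 0.827 to 1.09 and an unadjusted p of 0.440. Mtor, the kinase gene that holds Tfeb back and restrains autophagy, read 1170.0, 1024 and 1085 untreated and 1128, 1091 and 1092 after C1q. The C1q arrays were close together and inside the untreated range, with a fold change of 1.01 (0.928 to 1.10). Lamtor1, the membrane anchor of the Ragulator complex that recruits mTOR to lysosomes, read 939, 786 and 782 untreated and 819, 817 and 774 after C1q. Untreated array 1 alone was high, and the fold change was 0.965 on this probe set and 0.993 on the other. Vps35, a retromer gene that returns sorting receptors from endosomes, read 2967 ± 97.8 untreated and 2947 ± 36.9 after C1q, a fold change of 0.994.

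Autophagy initiation was covered by 3 genes that did not pass, with 1 mean higher and 2 lower under all 3 scalings. Ulk1, the kinase gene of the initiation complex, read 1232, 1174 and 1078 untreated and 1158, 1199.6 and 1129 after C1q, a fold change of 1.00 (0.918 to 1.09). Its C1q arrays lay inside the untreated range. Its relative Ulk2 read 1699.7, 1569.6 and 1596 and 1604, 1646 and 1472 in the same order. C1q array 3 was the lowest of the 6, and the fold change was 0.970 (0.893 to 1.05). Becn1, which encodes the scaffold of the lipid kinase complex, read 1043, 978 and 1082 untreated and 1009.6, 1014 and 1013 after C1q. The 3 C1q arrays were nearly equal and lay between untreated array 2 and the other two, with a fold change of 0.979 (0.904 to 1.06).

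The conjugation machinery held 5 genes, none of which passed, with 2 means higher and 3 lower as deposited and with quantile normalization, and 4 and 1 with median centring. Atg5, which is joined to Atg12 to form part of the enzyme that attaches Atg8 proteins to lipid, read 509.8, 498 and 519.8 untreated and 512, 499 and 496 after C1q. The arrays were close together throughout, with a fold change of 0.986 (0.903 to 1.08). Atg12 read 980.0, 912 and 1059 untreated and 985, 1032 and 986 after C1q. The untreated arrays spanned the C1q arrays, with a fold change of 1.02 (0.930 to 1.12). Atg16l1, which places that enzyme on the membrane, read 651, 626 and 602 untreated and 563, 625 and 610.2 after C1q. C1q array 1 was the lowest of the 6, while C1q array 2 lay level with untreated array 2, and the fold change was 0.958 (0.872 to 1.05). Atg7, the activating enzyme of the pathway, read 419 ± 20.8 untreated and 419 ± 17.2 after C1q, and Atg3, the transfer enzyme, 605 ± 39.4 untreated and 596 ± 17.9 after C1q. Their fold changes were 1.00 and 0.988.

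The Atg8 family proteins become attached to the autophagosome membrane and serve as its docking sites. With the receptor Sqstm1 they made up 6 genes, of which 0 passed, with 1 mean higher and 5 lower as deposited and 2 and 4 after either rescaling. Gabarap read 3087, 2944 and 3007 untreated and 2810.0, 2707 and 2844 after C1q. Each C1q array lay below each untreated array. The means were 3012 ± 71.6 untreated and 2787 ± 71.5 after C1q, a log2 fold change of -0.11 with a standard error of 0.043, or a fold change of 0.926 (0.867 to 0.988). The unadjusted p was 0.0234 and the limma adjusted p 0.9999, so the difference did not pass. The unadjusted p was 0.148 with median centring, 0.0674 without an intensity trend, 0.0530 without C1q array 1 and 0.116 without C1q array 2. It was smaller than in the main fit without untreated array 2, at 0.0131, and with array weights, at 0.00312. The adjusted p in these fits was 0.370 and 0.0728. The remaining alternative fits gave an unadjusted p of 0.0226 to 0.0471. The log2 fold change kept its sign in every alternative, between -0.13 and -0.085.

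Gabarapl1 read 2072, 1801 and 2081 untreated and 1854, 1930.2 and 1879 after C1q. Untreated array 2 was the lowest of all 6 arrays and the other untreated arrays were the highest, and the fold change was 0.953 (0.873 to 1.04). Without untreated array 2 the log2 fold change was -0.14 with an adjusted p of 0.340, and with array weights it was -0.14 with an adjusted p of 0.0690. Gabarapl2 had the same order of arrays in the untreated group, at 4924, 4289 and 4955, with 4504, 4747 and 4485 after C1q. Its fold change was 0.971 on this probe set and 0.965 on the other. On the first probe set the log2 fold change was -0.042. Without untreated array 2 it was -0.11 with an adjusted p of 0.476, and with array weights -0.11 with an adjusted p of 0.115.

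Map1lc3a read 828, 781 and 794 untreated and 775, 799 and 767 after C1q. The groups overlapped, with a fold change of 0.975 (0.901 to 1.06). Map1lc3b, the LC3 form most often used as an autophagosome marker, read 3386, 3294 and 3214 untreated and 3244, 3406 and 3296 after C1q. C1q array 2 was the highest of the 6 and the rest interleaved. The fold change was 1.01 (0.942 to 1.07), and on the other probe set, at 766 ± 93.1 untreated and 774 ± 34.7 after C1q, it was 1.01. Sqstm1, the cargo receptor that is itself degraded by autophagy, read 3260.0, 3036 and 3151 untreated and 3146, 3154 and 3032 after C1q. Untreated array 1 was the highest, untreated array 2 and C1q array 3 were level, and the fold change was 0.988 (0.924 to 1.06). Genes of this family have close relatives and processed copies that may be read by the same probes, which was not tested. The value of any single family gene is uncertain to that extent.

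**Figure D5:**
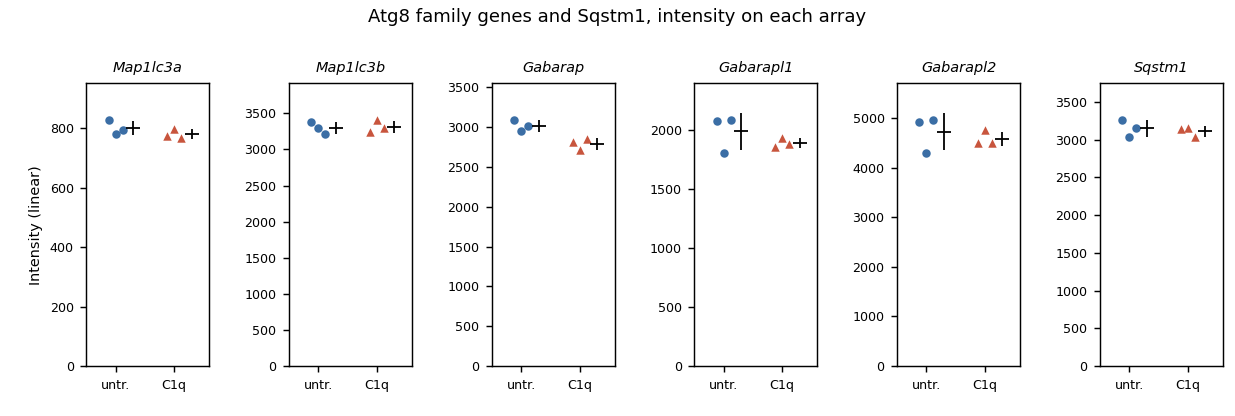
Linear intensity on each array for the 5 Atg8 family genes and Sqstm1, with circles for untreated and triangles for C1q arrays, and the mean with its SD (n = 3) beside them, each panel on its own axis from 0. Gabarap reads 2944 to 3087 untreated and 2707 to 2844 after C1q, without overlap, while the other 5 genes overlap.

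Other genes of the same systems, taken from fixed lists, did not pass either. Of 170 further symbols, 133 genes were found and 119 tested, and 0 were called, with 0 at an unadjusted p under 0.05. Their means were higher for 39 and lower for 80, at a median log2 fold change of -0.012, or 66 and 53 with quantile normalization and 72 and 47 with median centring. The groups did not overlap for 4 of 119, all with C1q lower, a count that does not exceed the 4.96% of all tested genes, or the 3.73% with C1q lower. The 4 genes were Atp6v0c, the ring subunit gene of the proton pump, the membrane protein gene Laptm4a, and Gga2 and Gga3, adaptors that sort cargo from the Golgi. Atp6v0c read 5397, 5212 and 5098 untreated and 5095, 4838 and 4779.9 after C1q, with a fold change of 0.937 and an unadjusted p of 0.0516. Untreated array 3 and C1q array 1 were nearly equal, so the groups were barely apart.

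By class, the tested genes with higher and lower means numbered 6 and 16 of 22 further hydrolases and cofactors, 15 and 22 of 37 membrane and trafficking genes, 3 and 10 of 13 pump subunits, 11 and 16 of 27 autophagy genes, and 4 and 16 of 20 regulators of mTOR complex 1 and Tfeb. After quantile normalization, higher means made up 14 of the hydrolases, 21 of the membrane and trafficking genes, 7 of the pump subunits, 17 of the autophagy genes and 7 of the regulators. Median centring gave 15 hydrolases, 23 membrane and trafficking genes, 8 pump subunits, 17 autophagy genes and 9 regulators with a higher mean. The genes of smallest unadjusted p were Galc, the galactosylceramidase gene, at 166 ± 11.4 untreated and 149 ± 5.03 after C1q, Gga3 at 721 ± 24.1 untreated and 677 ± 15.6 after C1q, and Atp6v0c. Among autophagy genes and regulators they were Wipi2, a lipid-binding autophagy protein gene, at 779.5 ± 37.5 untreated and 732 ± 44.4 after C1q, and Rheb, the activator of mTOR complex 1, at 1358 ± 68.2 untreated and 1266 ± 25.9 after C1q. None of these 5 passed.

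Lysosomal genes are also strongly expressed by microglia, so markers of other cells were read on the same arrays. All 12 neuron markers were above the filter, with Tubb3 at 8078 ± 408 untreated and 7952 ± 245 after C1q, and their summed intensity was 43653 to 47645 untreated and 43717 to 45754 after C1q. Of 14 microglial and macrophage markers 12 lay below the filter, and the sum of all 14 was 949 to 1018 untreated and 982 to 1037 after C1q. No deposited intensity of these markers was 0. In untreated mean the 12 below the filter ran from Itgam to C1qc. Itgam read 32.6 ± 7.7 untreated and 30.9 ± 6.65 after C1q, and C1qc 88.3 ± 8.97 untreated and 82.3 ± 2.19 after C1q. Of these 12, only Trem2 did not overlap, beside 6.33% of all 14506 genes without the filter. Trem2 read 59.6 ± 1.57 untreated and 63.6 ± 0.627 after C1q. The 2 above the filter were Cd68, itself a lysosomal membrane protein gene, and C1qb. Cd68 read 117 ± 19.5 untreated and 130.4 ± 10.8 after C1q, and C1qb 109 ± 10.1 untreated and 99.8 ± 10.5 after C1q. Summed intensities were 3268 to 3534 and 3365 to 3431 for 8 astrocyte markers, 1381 to 1516 and 1338 to 1426 for 8 oligodendrocyte lineage markers, and 523 to 590.2 and 476 to 554 for 7 endothelial markers. For 8 radial glia and progenitor markers they were 8749 to 8958 and 8453 to 8720, the one list whose sums did not overlap. Bright genes weigh most in such sums, and Fabp7 differed most in intensity, at 2389 ± 140 untreated and 2211 ± 136 after C1q. Taken singly, each of these 8 markers overlapped between the groups. The 7 tested ones had a median log2 fold change of -0.026, beside -0.024 for the neuron markers. Of these 7, 1 mean was higher and 6 lower as deposited, and 4 and 3 with median centring. Among the endothelial markers only Esam, below the filter, did not overlap, at 102 ± 10.3 untreated and 87.5 ± 12.1 after C1q. The part of all these cell types in the values of the 42 genes was not tested.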

How the data were processed

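Transcript levels were measured on 6 one-colour Affymetrix arrays, 3 per group, from biotin-labelled cRNA, per the labels. The authors deposited 1 intensity per array for each of 29215 probe sets, on a linear scale; how they were summarised and normalized is not given in the sources used here, so signal over background is unknown. All values were taken as log2(intensity + 16), which understates changes of dim genes.

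The platform annotation supplied gene symbols, with identifiers checked against RefSeq (GRCr8). The annotation named 1 gene for 15310 probe sets, several for 323 and none for 13582. Testing was limited to the brightest 60% of probe sets by mean over the arrays. The group difference was fitted in limma 3.58.1 (R 4.3.3), using lmFit and then eBayes with a variance trend on intensity, with Benjamini-Hochberg adjusted p-values over all tested probe sets, two-sided. The number of arrays limits the precision, and because nothing says that the arrays come from separate cultures, the p-values measure only array-to-array spread, possibly technical. Alternatives covered normalization, filter, pseudocount, variance trend, array weights, the replicate block, left-out arrays and averaging all probe sets per gene.

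The 42 genes, the further lists and the tests were chosen with earlier results of these data known. Genes were described in full if their groups did not overlap, if they had 1 of the 2 smallest p in their class, or if they were among 14 fixed by name. From each further list the gene of smallest p was named. E-box matches were exact matches in RefSeq promoter sequences.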

Additional observations from a re-analysis of the deposited data

How the results depend on the processing

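Calls on the whole array numbered 0 as reported, 447 with array weights, 9 with the replicate number as a block, 1 without the filter and 0 to 38 when each array was left out, and none of these was among the 42 genes. The numbers were not taken to pair the arrays, because the labels do not say that they do. Arrays of the same number correlated, in their deviations from the group means, at 0.014, -0.45 and -0.13. All pairs across the groups ran from -0.45 to 0.45. With 3 arrays per group these correlations cannot show whether the arrays were paired. Higher means among the 42 genes numbered 17 as reported, 26 with median centring and 8 to 23 with an array left out. Genes without overlap numbered 1 as reported, 4 with quantile normalization (7.38% of all tested genes), 2 with median centring (3.27%) and 3 to 9 with an array left out, where 9.75% to 23.7% of all tested genes did not overlap. The median log2 fold change moved by less than the between-array SD of 0.040 in all settings. None of the 42 genes passed in any alternative, but 14 of the 24 genes described in full changed sign in at least 1. The largest reversed value was -0.069, for Atg12, against 0.027 in the main fit. The genes that changed sign are given here by setting. With quantile normalization these were Atp6v0a1 (0.0088) and Sqstm1 (0.0019), and with median centring Lamp1 (0.0025), Atg5 (0.0069) and Sqstm1 (0.0095). With array weights they were Lamp1 (0.0042), Mcoln1 (0.012), Lamtor1 (0.029) and Atg12 (-0.069). With an array left out the log2 fold changes ran from -0.025 to 0.080 for Atg12, from -0.069 to 0.0025 for Becn1, from -0.019 to 0.072 for Ctsd, from -0.044 to 0.015 for Lamp1, from -0.095 to 0.035 for Lamtor1, from -0.012 to 0.027 for Map1lc3b, from -0.030 to 0.065 for Mtor, from -0.043 to 0.0079 for Sqstm1, from -0.024 to 0.15 for Tpp1, from -0.049 to 0.046 for Ulk1 and from -0.076 to 0.0036 for Ulk2. The cause of these sign changes was not tested. Pseudocounts of 1 or 64, the brightest 40% and the fit without an intensity trend changed no sign among these 24 genes. The number of arrays and the unknown background limit what small differences can be shown.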

Other observations

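Among the further lysosome and autophagy genes, a promoter was found for 111 of 133, and 22 of them (19.8%) held CACGTG and 11 (9.91%) the 8-base extension TCACGTGA. This compares with 9.59% and 1.69% of the promoters of tested genes. The 22 genes with the motif, all tested, had a median log2 fold change of -0.026 after C1q, with 6 means higher and 16 lower. The 77 tested genes without it had a median of -0.010, with 26 higher and 51 lower. Over all tested genes the median was -0.016, with 63.0% of means lower. The split by motif was made on the values as deposited only, and an effect of the motif was not tested.

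Some genes of these systems read below the filter intensity of 94.4 and were not tested. The cysteine protease genes Ctss, Ctsc, Ctsh and Ctsk, which are known from immune cells and bone, read 69.8, 56.2, 66.8 and 51.6 in untreated neurons and 72.8, 52.8, 65.8 and 50.6 after C1q, as means of 3 arrays. Mitf, a relative of Tfeb best known in pigment cells, read 63.5 and 72.1, and the channel genes Mcoln2 and Mcoln3, relatives of Mcoln1, read 39.8 and 34.1 untreated and 34.8 and 32.4 after C1q. Whether their RNA was absent or only dim on these probe sets was not tested.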
